A study of Mus musculus with 203 samples.

Results

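The genes described here are 36 members of the ATF4 amino acid response and of the unfolded protein response of the endoplasmic reticulum (ER). They were chosen by gene symbol, as 19 amino acid response genes and 17 ER chaperone and ER stress genes, out of 25094 genes in the RAW RNA-seq table. All 36 were measured above the filter on low values that 12905 genes passed. RNA-seq had been performed in RAW cells (RAW264.7, a BALB/c mouse macrophage line) that stably carried a lentiviral short hairpin against GFP (shGFP, the control) or 1 hairpin against Kdm1a (shKDM1A), each left untreated or treated for 6 h with IL4 at 20 ng/ml. The 4 groups held 4 libraries each. Every group therefore carried a lentivirus and had been through selection, and with a single hairpin the loss of KDM1A and any other effect of that hairpin cannot be told apart. The methods of the study speak of biological replicates in general, but neither they nor the labels say whether the 4 libraries of a group came from separate cultures, so the p-values measure the spread between these libraries, which may be technical. The series also holds BMDMs of wild-type and Gps2 KO mice, and all 36 symbols are listed in the BMDM table of 16478 genes. That table gives the authors' own comparisons, so BMDM values were not used here.

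When amino acids run short or misfolded proteins build up in the ER, kinases phosphorylate the translation factor eIF2 alpha, and the mRNA of the transcription factor ATF4 is then translated more. ATF4 acts on genes for amino acid synthesis and uptake. The ER has further sensors of its own: IRE1 (Ern1), which splices Xbp1 mRNA, and ATF6, which is cleaved to a transcription factor, and both act on genes for chaperones, disulfide isomerases and the degradation of misfolded proteins. Splicing of Xbp1, cleavage of ATF6 and translation of Atf4 are not seen in gene-level RNA values. KDM1A (LSD1) is a histone demethylase, and the study asked how its loss alters the transcriptional response of macrophages to IL4, a cytokine that drives alternative activation.

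The values are log2 values per library as the authors deposited them, and each difference below is a difference of log2 group means with its standard error (SE) from limma, a linear model fitted across all 12905 genes. A gene is called higher or lower at an adjusted p (Benjamini-Hochberg over all genes tested) under 0.05. The 16 libraries held between 17554721 and 27782568 counted tags. Kdm1a itself lay between 11.13 and 11.23 in the shGFP libraries and between 10.23 and 10.36 in the shKDM1A libraries, a difference of -0.88 (SE 0.03, adjusted p = 5.6e-13), and of -0.79 with IL4 (adjusted p = 2.2e-12). Macrophage markers such as Lyz2 and Csf1r were high in every library. Of the markers of other cell types given here, Epcam and Krt18 were listed at 0 in every library, Cd3e and Col1a1 lay below 0, and Pecam1 reached at most 1.44. In cultures measured in bulk, fewer cells expressing a gene and less RNA per cell cannot be told apart.

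Promoters were searched for the elements that give both groups of genes their textbook regulation, and the matches in the genes that the results turn on are printed here so that the values can be read beside them. RefSeq promoter sequences (GRCm38.p6) were matched for 33 of the 36 members (all but Aldh1l2, Slc7a5 and Atf6), and the 250 bases before each start were searched on both strands. The ER stress response element ERSE (CCAAT, 9 bases of any kind, CCACG), through which ATF6 and XBP1 act, was found in 7 ER members and in no amino acid response member, against 0.113% of all 32851 promoters. These 7 were Hspa5, Hsp90b1, Calr, Canx, Pdia6, Dnajc3 and Creld2, and Hsp90b1 held it at 212 and, on the opposite strand, at 107 bases before its start. ERSE-II (ATTGG, 1 base of any kind, CCACG), which ends in the same CCACG as ERSE, was found in Herpud1 alone among the members, against 0.0304% of all promoters. The C/EBP-ATF response element CARE (TGATGNAA), which binds ATF4 with a C/EBP partner, was found in Asns, Chac1, Nupr1 and Pycr1 and, among ER members, in Herpud1, against 3.45% of all promoters. TGACGTGG, the UPR element, was found in no member, against 0.563% of all promoters. In the lines below, capitals mark the fixed letters of the motif, in the 5′ to 3′ direction of the motif.
Hspa5, ERSE, 65 bases before the start, chr2:34772020-34772048, plus strand: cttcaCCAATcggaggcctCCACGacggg
Pdia6, ERSE, 98 bases before the start, chr12:17266486-17266514, plus strand: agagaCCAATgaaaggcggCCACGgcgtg
Dnajc3, ERSE, 105 bases before the start, chr14:118937822-118937850, plus strand: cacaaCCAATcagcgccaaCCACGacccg
Herpud1, ERSE-II, 52 bases before the start, chr8:94386368-94386396, plus strand: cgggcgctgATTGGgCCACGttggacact
Asns, CARE, 23 bases before the start, chr6:7693215-7693242, minus strand: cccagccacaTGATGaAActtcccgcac
Chac1, CARE, 193 bases before the start, chr2:119351039-119351066, minus strand: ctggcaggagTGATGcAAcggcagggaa
A match is a description of the sequence only, and the lack of one, as in Trib3, Atf4, Sdf2l1 or Edem1, says only that these letters are not in this window.

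In shGFP cells without IL4, the levels of the 36 genes per kilobase of exon spanned a wide range. Calr, a lectin chaperone, was highest at a mean log2 value per kilobase of 13.91, followed by Hspa5, which encodes the ER chaperone BiP, at 13.64 and Hsp90b1 at 13.32. Among amino acid response genes Shmt2 was highest at 12.26 and Psat1 followed at 12.18, 2 enzymes that handle serine. At the low end were Trib3, a pseudokinase that restrains ATF4 signalling, at 5.48, the mitochondrial folate enzyme gene Aldh1l2 at 5.74, and Pycr1 at 5.75. Of the 35 steps between neighbours in this order, 24 were larger than the sum of both SDs. The steps from Shmt2 to Canx, Canx to Psat1, Atf4 to Phgdh, Ern1 to Pycr1 and Pycr1 to Aldh1l2 were among those that were not. Calr, Hspa5 and Hsp90b1 also stood in the first places without any division by length, at 14.86, 15.02 and 14.77 (values per gene, which longer transcripts raise).

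**Figure D1:**
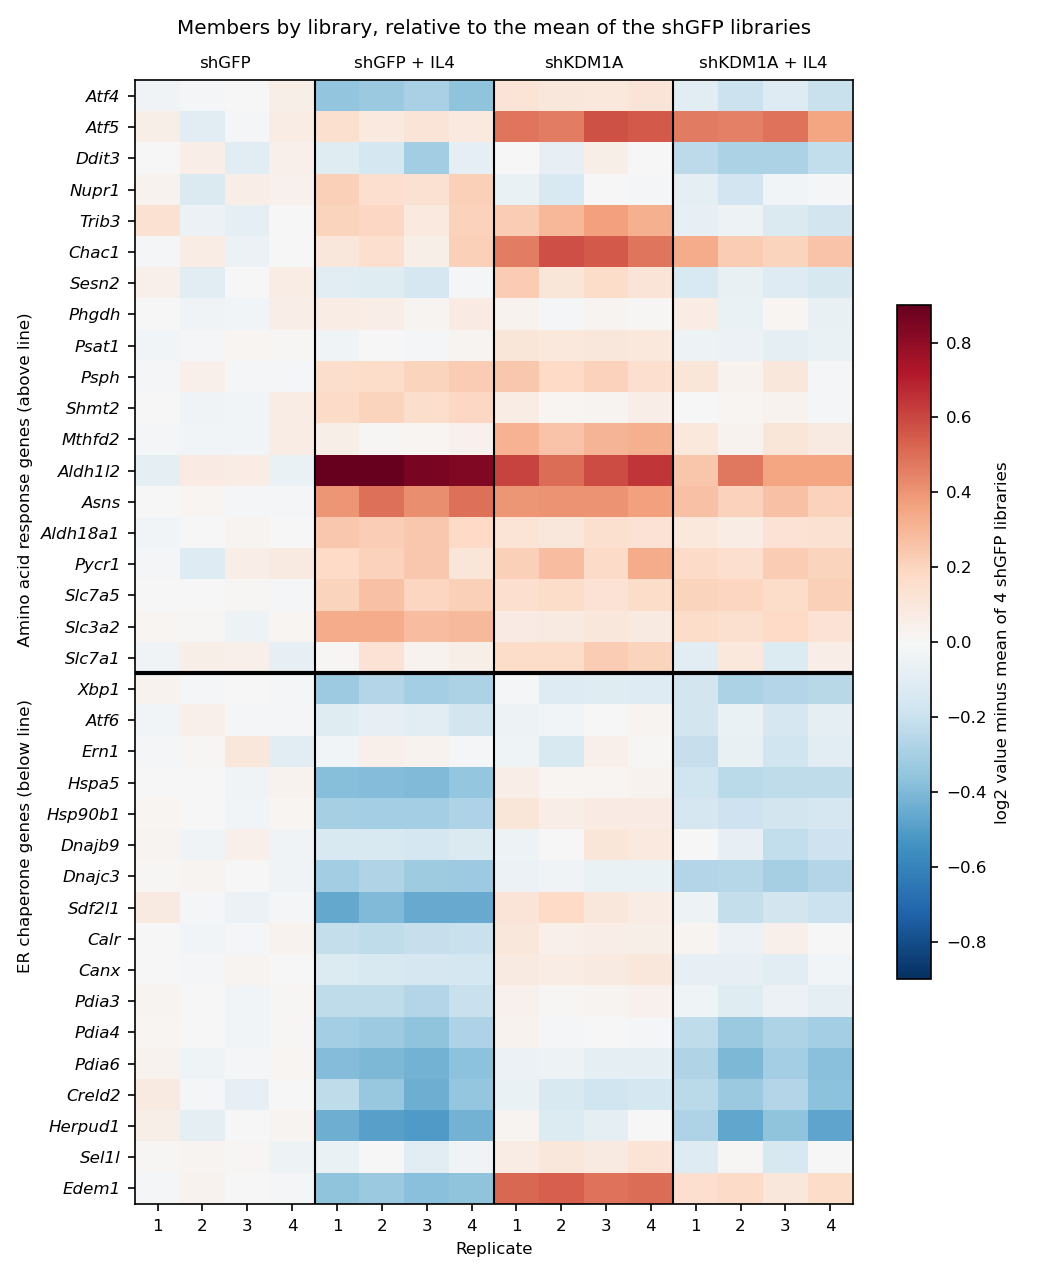
Each row is 1 of the 36 genes and each column 1 of the 16 libraries. Color gives the log2 value minus the mean of the 4 shGFP libraries without IL4. Amino acid response genes (above the thick line) were mostly redder in shGFP with IL4 and in shKDM1A without IL4, while ER genes (below it) were mostly bluer with IL4 in both kinds of cells.

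IL4 moved the groups in opposite directions in control cells. Of the 19 amino acid response genes, 12 were higher and 2 lower with IL4 in shGFP cells, while among all genes tested 13.1% were higher and 13.7% lower (26.9% in either direction). Of the 17 ER genes, none was higher and 15 were lower, and only Ern1 (0.01, adjusted p = 0.90) and Sel1l (-0.05, adjusted p = 0.32) were not called. The median difference was 0.17 over the amino acid response genes and -0.30 over the ER genes, beside 0.00 over all genes tested (-0.0005 before rounding). In shKDM1A cells, whose group means come from other libraries while the error is estimated over all 16, the ER genes again had 15 of 17 lower with IL4 and none higher. There the amino acid response genes instead had 11 lower and 1 higher of 19, beside 27.1% of all genes called (13.6% higher, 13.5% lower).

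Of the amino acid response genes, the enzymes Aldh1l2 and Asns changed most with IL4 in control cells. Aldh1l2 (chr10:82950192-82996885 in mm9, minus strand), a mitochondrial dehydrogenase of formyl-tetrahydrofolate, had log2 values of 8.24, 8.40, 8.39 and 8.26 in shGFP replicates 1 to 4 and of 9.27, 9.26, 9.18 and 9.15 in the same cells with IL4. In shKDM1A cells it stood at 8.93, 8.83, 8.91 and 8.96 without IL4 and at 8.57, 8.80, 8.68 and 8.68 with IL4. All 4 groups were separate from each other, and their order was shGFP, shKDM1A with IL4, shKDM1A, shGFP with IL4. IL4 raised it by 0.89 (SE 0.05, adjusted p = 4.7e-10) in shGFP cells, 85.5% on the linear scale, and lowered it in shKDM1A cells, where the difference was -0.23 (SE 0.05, adjusted p = 0.0018).

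Asns, asparagine synthetase (chr6:7625165-7643209, minus strand), followed the same order except that shGFP with IL4 and shKDM1A without IL4 lay close together. Its values were 11.22, 11.24, 11.21 and 11.21 in shGFP and 11.62, 11.72, 11.64 and 11.71 in shGFP with IL4. In shKDM1A they were 11.61, 11.62, 11.62 and 11.59, and in shKDM1A with IL4 11.48, 11.42, 11.48 and 11.43. The shGFP libraries were the lowest and no shGFP library overlapped another group. With IL4, Asns rose by 0.45 (SE 0.02, adjusted p = 3.6e-10) in shGFP cells and fell by 0.16 (SE 0.02, adjusted p = 0.00011) in shKDM1A cells. Of the other asparagine and proline enzymes, Aldh18a1 and Pycr1 of proline synthesis rose in shGFP cells, by 0.22 (adjusted p = 4.7e-07) and 0.18 (adjusted p = 0.0043), and were not called in shKDM1A cells (-0.02 and -0.06).

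The serine and folate enzymes were divided. Psph, the last enzyme of serine synthesis, rose by 0.19 in shGFP cells and fell by 0.14 in shKDM1A cells, and Shmt2, which passes a carbon unit from serine to folate, rose by 0.18 in shGFP cells and was not called in shKDM1A cells (-0.03, adjusted p = 0.29). Psat1 and Mthfd2 were not called in shGFP cells (-0.00 and 0.03) and fell in shKDM1A cells, by 0.16 and 0.22 (adjusted p = 2.8e-06 and 2.9e-06). Phgdh, which opens serine synthesis, was called in none of the comparisons of the main fit. Its differences ran from -0.07 to 0.06 between groups, with a gap of -0.08 between the IL4 responses of shKDM1A and shGFP cells. With quantile normalization it was called lower in shKDM1A than in shGFP cells with IL4 (-0.14, adjusted p = 0.0015). It was also called there with a trended variance prior or without shKDM1A IL4 replicate 1. Thus 3 of these 6 enzymes (Psph, Shmt2 and Aldh1l2) rose with IL4 in control cells and 4 (Psph, Psat1, Mthfd2 and Aldh1l2) fell with IL4 in knockdown cells, beside 13.1% of all genes higher in the former and 13.5% lower in the latter.

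Among the transporters, Slc3a2 and Slc7a5, the heavy and light chains of the large neutral amino acid transporter, rose with IL4 in shGFP cells by 0.31 (adjusted p = 5.6e-09) and 0.22 (adjusted p = 2.2e-07). In shKDM1A cells Slc3a2 was the single amino acid response gene called higher (0.07, SE 0.02, adjusted p = 0.018), a call that was lost without shKDM1A IL4 replicate 3 or with quantile normalization, and Slc7a5 was not called (0.04, adjusted p = 0.12). Slc7a1, a carrier of arginine and lysine, was not called in shGFP cells (0.06) and fell in shKDM1A cells by 0.21 (adjusted p = 0.0022).

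Trib3 and Chac1, which are induced by ATF4 and CHOP and whose products restrain ATF4 signalling and degrade glutathione, had small rises in control cells and larger falls in knockdown cells. Trib3 (chr2:152163161-152169796, minus strand) was at 6.65, 6.46, 6.42 and 6.52 in shGFP and at 6.71, 6.70, 6.60 and 6.72 in shGFP with IL4. In shKDM1A it was at 6.74, 6.81, 6.88 and 6.83 without IL4 and at 6.44, 6.46, 6.38 and 6.35 with IL4. The shGFP groups overlapped through replicate 1 without IL4 and replicate 3 with IL4, whereas the shKDM1A groups were far apart. The IL4 difference was 0.17 (SE 0.05, adjusted p = 0.010) in shGFP cells and -0.41 (SE 0.05, adjusted p = 4e-06) in shKDM1A cells.

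Chac1 (chr2:119176978-119180062, plus strand) had values of 6.90, 6.99, 6.86 and 6.91 in shGFP and of 7.02, 7.07, 6.97 and 7.13 with IL4. Its values in shKDM1A were 7.38, 7.50, 7.47 and 7.40, and 7.25, 7.14, 7.12 and 7.17 with IL4. The control groups overlapped and the knockdown groups did not. IL4 raised it by 0.13 (SE 0.04, adjusted p = 0.021) in shGFP cells, a call lost when shGFP replicate 1 or 3 or shGFP IL4 replicate 2 or 4 was left out, and lowered it in shKDM1A cells, with a difference of -0.27 (SE 0.04, adjusted p = 7.4e-05). Sesn2, a leucine sensor upstream of mTORC1, was not called in shGFP cells (-0.10, adjusted p = 0.069) and fell by 0.27 in shKDM1A cells (adjusted p = 4.2e-05).

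**Figure D2:**
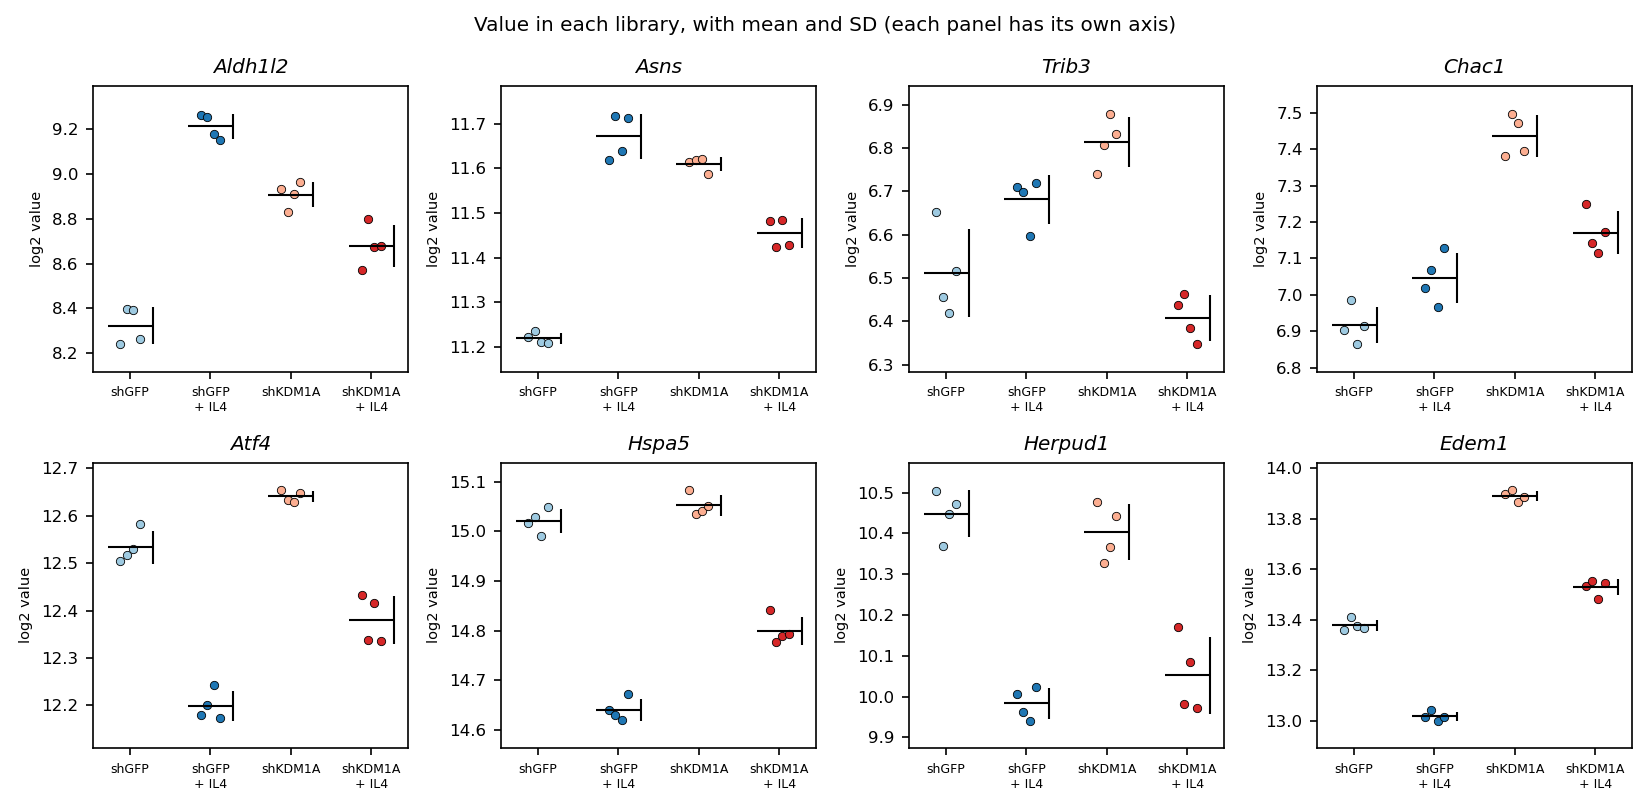
The log2 value of 8 genes in each library (points), with the mean (horizontal line) and SD (vertical line) of the 4 libraries of each group. Each panel has its own vertical axis, which does not start at 0. Aldh1l2 and Asns were lowest in shGFP, from 8.24 to 8.40 and from 11.21 to 11.24, and Edem1 formed 4 separate groups between 13.00 and 13.91.

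The transcription factors of the response were divided: with IL4 in shGFP cells Atf4 and Ddit3 fell while Atf5 and Nupr1 rose. Atf4 (chr15:80085614-80087975, plus strand) stood at 12.50, 12.52, 12.53 and 12.58 in shGFP and at 12.18, 12.20, 12.24 and 12.17 with IL4. In shKDM1A cells it stood at 12.65, 12.63, 12.63 and 12.65, and at 12.43, 12.34, 12.42 and 12.34 with IL4. Within each kind of cell the IL4 libraries were all below the others. Atf4 mRNA fell by 0.33 (SE 0.03, adjusted p = 4e-08) in shGFP cells and by 0.26 (SE 0.03, adjusted p = 9.6e-07) in shKDM1A cells.

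Ddit3, which encodes the stress factor CHOP, was at 7.96, 8.03, 7.86 and 8.01 in shGFP and at 7.86, 7.81, 7.65 and 7.88 with IL4. With the knockdown it was at 7.97, 7.90, 8.02 and 7.96, and at 7.73, 7.68, 7.68 and 7.75 with IL4. The control groups overlapped and the knockdown groups did not. IL4 lowered it in both, with differences of -0.17 (SE 0.05, adjusted p = 0.012) and -0.25 (SE 0.05, adjusted p = 0.00055). Its annotated exons share 68 bases, 3.97% of their length, with Mars on the opposite strand, and Mars fell by 0.11 with IL4 in shKDM1A cells (adjusted p = 0.00061) and rose by 0.09 in shGFP cells (adjusted p = 0.0054). In shGFP without IL4 the mean was 12.16 for Mars and 7.97 for Ddit3. The part of these shared bases in the Ddit3 values was not tested.

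Atf5, a factor related to ATF4, was at 9.35, 9.19, 9.28 and 9.36 in shGFP and at 9.44, 9.38, 9.41 and 9.38 with IL4. In shKDM1A it was at 9.77, 9.75, 9.87 and 9.84, and at 9.76, 9.74, 9.78 and 9.64 with IL4. Every shKDM1A library was above every shGFP library, while IL4 made little difference. The rise with IL4 in shGFP cells, 0.11 (SE 0.04, adjusted p = 0.045), was lost in 9 of the 16 fits that left out 1 library and without the filter on low values (adjusted p = 0.13). Exons of Atf5 overlap those of Il4i1 and Nup62 on the opposite strand by 82 bases each (4.12% of the Atf5 exon length), and reads of both strands were counted. Il4i1, an IL4-induced gene, rose by 0.56 in shGFP and 0.72 in shKDM1A cells (adjusted p = 4.8e-09 and 2.3e-10). Nup62 was not called with IL4 in either (0.04 and 0.03). In shGFP without IL4 the means were 6.40 for Il4i1, 11.93 for Nup62 and 9.29 for Atf5. The part of Il4i1 and Nup62 in the Atf5 values was not tested. Nupr1, a stress-induced chromatin factor, rose by 0.18 with IL4 in shGFP cells (adjusted p = 0.0062) and was not called in shKDM1A cells (-0.02, adjusted p = 0.77).

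The 5 members that were called higher with IL4 in shGFP cells and lower with IL4 in shKDM1A cells were Aldh1l2, Asns, Trib3, Psph and Chac1. Over all genes tested, 33 genes (0.256%) had this pair of calls. The opposite pair, lower in shGFP and higher in shKDM1A cells, was found in 32 genes and in no member. A fall in both was found in 912 genes (7.07%), which included Atf4, Ddit3 and 14 of the 17 ER genes.

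**Figure D3:**
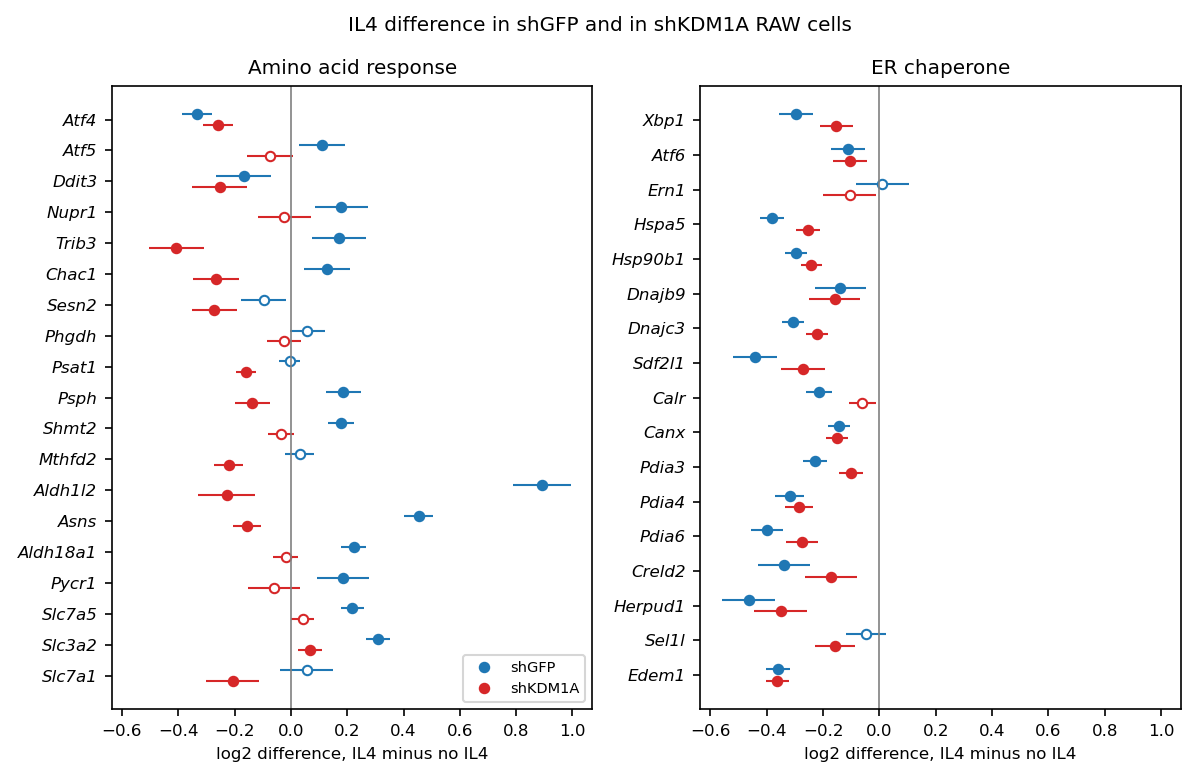
The log2 difference with IL4 for each gene in shGFP (blue) and shKDM1A (red) cells, with its 95% confidence interval. Filled points passed an adjusted p under 0.05. In the amino acid response panel most blue points lie right of 0 and most red points left of it, with Atf4 and Ddit3 left of 0 in both, while in the ER panel all filled points lie left of 0.

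Whether the IL4 response differed between shKDM1A and shGFP cells was tested as an interaction in the same fit, where 6.13% of all genes were called (3.56% with a more positive and 2.57% with a more negative difference in shKDM1A cells). Among the amino acid response genes, 13 of 19 had a more negative IL4 difference in shKDM1A cells and none a more positive one. Aldh1l2 had the largest gap of the members, -1.12 (SE 0.07, adjusted p = 8.7e-08), followed by Asns at -0.61 (SE 0.03, adjusted p = 3.6e-08), Trib3 at -0.58 (SE 0.06, adjusted p = 7.5e-05) and Chac1 at -0.39 (SE 0.06, adjusted p = 0.00053). The other 9 were Psph (-0.32), Slc7a1 (-0.26), Mthfd2 (-0.25), Pycr1 (-0.24), Aldh18a1 (-0.24), Slc3a2 (-0.24), Shmt2 (-0.21), Slc7a5 (-0.18) and Psat1 (-0.16). So all 3 transporters, all 3 asparagine and proline enzymes and 5 of the 6 serine and folate enzymes were called, while the 4 regulators Atf4, Atf5, Ddit3 and Nupr1 were not called. Phgdh and Sesn2 (-0.17) were not called either. The size of the gap did not separate these sets, since Nupr1 and Atf5 had larger gaps than Slc7a5 and Psat1. For Atf4 the gap was 0.07, with a 95% interval from -0.00 to 0.15, and for Nupr1 it was -0.20 (adjusted p = 0.066). Nupr1 was called without shKDM1A replicate 2 or shKDM1A IL4 replicate 4, and with the replicate number as a block (adjusted p = 0.011). Atf5 (-0.19, adjusted p = 0.056) was called without shGFP replicate 4, with a trended variance prior or with a stricter filter on low values. The call of Pycr1 (adjusted p = 0.027) was lost when any of shGFP replicate 1, shGFP IL4 replicate 2 or 3 or shKDM1A replicate 2 or 4 was left out.

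Among the ER genes, 4 of 17 had a more positive IL4 difference in shKDM1A cells, that is a smaller fall, and none a more negative one. They were Calr (0.15, SE 0.03, adjusted p = 0.0088), Xbp1 (0.14, SE 0.04, adjusted p = 0.042), Hspa5 (0.13, SE 0.03, adjusted p = 0.015) and Pdia3 (0.13, SE 0.03, adjusted p = 0.014). The call of Xbp1 held in the fits that left out shGFP IL4 replicate 2, shKDM1A replicate 1 or shKDM1A IL4 replicate 2 or 4 and was lost in the other 12. With quantile normalization Xbp1 (adjusted p = 0.055) and Pdia3 (adjusted p = 0.27) were no longer called. Sdf2l1 and Creld2, not called, had larger gaps than these 4 (0.17 each). Sdf2l1 was called with a trended variance prior (adjusted p = 0.018) and Creld2 with the replicate number as a block (adjusted p = 0.034). Pdia6 (0.12) and Dnajc3 (0.09) also gained a call in some alternatives.

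Genes in each role of the ER group fell with IL4, all but Ern1 and Sel1l in shGFP cells and all but Ern1 and Calr in shKDM1A cells. Among the chaperones, Hspa5 (chr2:34627610-34632049, plus strand), which holds the ERSE printed above, was at 15.02, 15.03, 14.99 and 15.05 in shGFP and at 14.64, 14.63, 14.62 and 14.67 with IL4. In shKDM1A it was at 15.08, 15.04, 15.04 and 15.05, and at 14.84, 14.78, 14.79 and 14.79 with IL4. The IL4 libraries were below the others in each kind of cell, and with IL4 the shKDM1A libraries were all above the shGFP libraries. The fall was 23.2% on the linear scale in shGFP cells, a log2 difference of -0.38 (SE 0.02, adjusted p = 3.8e-10), and the difference in shKDM1A cells was -0.25 (SE 0.02, adjusted p = 7.4e-08).

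Sdf2l1 (chr16:17130231-17132476, minus strand), which keeps BiP clients soluble, was at 11.92, 11.82, 11.79 and 11.83 in shGFP and at 11.38, 11.44, 11.39 and 11.39 with IL4. Its shKDM1A libraries were at 11.96, 12.02, 11.94 and 11.91, and at 11.80, 11.62, 11.68 and 11.65 with IL4. The groups with and without IL4 did not overlap in either kind of cell. It fell by 0.44 (SE 0.04, adjusted p = 1.1e-07) in shGFP cells and by 0.27 (SE 0.04, adjusted p = 3.2e-05) in shKDM1A cells. Hsp90b1 (GRP94) and the BiP co-chaperones Dnajc3 and Dnajb9 also fell in both, from -0.31 (Dnajc3) to -0.14 (Dnajb9) in shGFP cells and from -0.24 (Hsp90b1) to -0.16 (Dnajb9) in shKDM1A cells. The call of Dnajb9 in shGFP cells was lost without shGFP replicate 1 or 3 or shGFP IL4 replicate 3.

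The disulfide isomerases, which form and rearrange disulfide bonds, fell together. Pdia6 fell by 0.40, Pdia4 by 0.32 and Pdia3 by 0.23 in shGFP cells, and by 0.28, 0.29 and 0.10 in shKDM1A cells. Creld2, an ER stress protein with isomerase activity, fell by 0.34 and 0.17. The lectin chaperones Calr and Canx, which hold glycoproteins for folding, fell by 0.21 and 0.14 in shGFP cells, and in shKDM1A cells Canx fell by 0.15 while Calr was not called (-0.06, adjusted p = 0.055).

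Of the genes for ER-associated degradation, Herpud1 (chr8:96910329-96919271, plus strand), a membrane adaptor of the degradation complex, had the largest fall among the ER genes in shGFP cells. It was at 10.50, 10.37, 10.45 and 10.47 in shGFP and at 10.01, 9.96, 9.94 and 10.02 with IL4. With the knockdown it was at 10.48, 10.33, 10.37 and 10.44, and at 10.17, 9.98, 10.09 and 9.97 with IL4. The libraries with IL4 were lower in both and the knockdown made no visible shift. The differences with IL4 were -0.46 (SE 0.04, adjusted p = 5.4e-07), a fall of 27.5%, and -0.35 (SE 0.04, adjusted p = 1.5e-05). Sel1l, the adaptor of the HRD1 ubiquitin ligase, was not called in shGFP cells and fell by 0.16 in shKDM1A cells (adjusted p = 0.0019), but the difference from shGFP cells was not called (-0.11, adjusted p = 0.18).

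Edem1 (chr6:108778635-108809350, plus strand), a mannosidase-like protein that directs misfolded glycoproteins to degradation, was at 13.36, 13.41, 13.37 and 13.37 in shGFP and at 13.01, 13.04, 13.00 and 13.02 with IL4. In shKDM1A it was at 13.90, 13.91, 13.87 and 13.88, and at 13.53, 13.55, 13.48 and 13.54 with IL4. All 4 groups were separate, and the same IL4 step was seen at both levels. The IL4 difference was -0.36 (SE 0.02) in both, with adjusted p = 5.6e-10 and 6.3e-10, and the 95% interval of the gap between them ran from -0.06 to 0.06.

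Of the sensors and their transcription factors, Xbp1, whose mRNA IRE1 splices, was at 12.57, 12.52, 12.54 and 12.52 in shGFP and at 12.21, 12.27, 12.23 and 12.25 with IL4. In shKDM1A it was at 12.52, 12.42, 12.43 and 12.42, and at 12.37, 12.25, 12.28 and 12.28 with IL4. All IL4 libraries lay below those without IL4, with shKDM1A IL4 replicate 1 the highest of them. Xbp1 fell by 0.30 (SE 0.03, adjusted p = 4.9e-07) and by 0.15 (SE 0.03, adjusted p = 0.00054). Atf6 fell by 0.11 and 0.10 (adjusted p = 0.0072 and 0.010), and Ern1 was not called in either (0.01 and -0.11).

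Set beside the sequences, the 8 ER members with an ERSE or ERSE-II match were all lower with IL4 in shGFP cells (differences from -0.46 to -0.14), and 6 of the 8 with a promoter but no match were lower (from -0.44 to 0.01). In shKDM1A cells 7 of 8 were lower in each set. The 4 amino acid response members with a CARE match were all higher with IL4 in shGFP cells, and 6 of the 13 without a match were. In shKDM1A cells 2 of the 4 with a match were lower and none higher, and of the 13 without a match 8 were lower and 1 higher. Of all genes tested, 13.1% were higher and 13.7% lower in shGFP cells, and 13.6% and 13.5% in shKDM1A cells. The sets are small and were not tested against each other, and Aldh1l2, Slc7a5 and Atf6 are in none of them.

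The knockdown was then compared with the control at each IL4 state. These comparisons use the same libraries as those above, so their values are not separate evidence. Without IL4, 15 of the 19 amino acid response genes were higher in shKDM1A than in shGFP cells and none was lower, beside 38.2% of all genes called (19.7% higher, 18.4% lower). In these 15 the 4 shKDM1A libraries all lay above the 4 shGFP libraries, as they did in 19.6% of all genes. The largest were Aldh1l2 (0.59, SE 0.05, adjusted p = 5.4e-08), Chac1 (0.52, SE 0.04, adjusted p = 1.8e-08), Atf5 (0.52, SE 0.04, adjusted p = 1.7e-08), Asns (0.39, SE 0.02, adjusted p = 1.3e-09), Trib3 (0.30, SE 0.05, adjusted p = 5.3e-05) and Mthfd2 (0.30, SE 0.02, adjusted p = 4.1e-08). Atf4 was higher by 0.11 (SE 0.03, adjusted p = 0.0034), a call lost with quantile normalization (0.06, adjusted p = 0.073). So was the call of Slc3a2 (0.05, adjusted p = 0.082), which left 13 of the 15, beside 39.9% of all genes called with that scaling. Ddit3 (-0.00), Nupr1 (-0.05), Phgdh (0.02) and Shmt2 (0.04) were not called.

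With IL4 present, only 3 amino acid response genes were higher in shKDM1A cells and 9 were lower, beside 40.7% of all genes called (20.9% higher, 19.8% lower). The 3 were Atf5 (0.33, adjusted p = 3.8e-06), Atf4 (0.18, SE 0.03, adjusted p = 2.8e-05) and Chac1 (0.12, adjusted p = 0.018). The call of Chac1 was lost without shGFP IL4 replicate 3 or shKDM1A IL4 replicate 1. The lower genes included Aldh1l2 (-0.53, SE 0.05, adjusted p = 1.7e-07), Trib3 (-0.27, SE 0.05, adjusted p = 0.00015), Nupr1 (-0.25, SE 0.04, adjusted p = 0.00022) and Asns (-0.22, SE 0.02, adjusted p = 1.8e-06), and the other 5 (Shmt2, Slc3a2, Psph, Aldh18a1 and Psat1) lay between -0.17 and -0.06. Psat1 was no longer called without shGFP IL4 replicate 4 or shKDM1A IL4 replicate 3, with a stricter filter on low values or with only the compared groups fitted. Atf4 mRNA was thus higher, and Asns and Aldh1l2 mRNA lower, in the same shKDM1A IL4 libraries.

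Of the ER genes, Edem1 had by far the largest knockdown difference, 0.51 without IL4 and 0.51 with IL4 (SE 0.02, adjusted p = 5e-12 for each), about 42.6% and 42.4% higher on the linear scale. Without IL4, 9 of the 17 ER genes (52.9%) were called, beside 38.2% of all genes, and apart from Edem1 the differences were small: 5 more were higher (Sdf2l1, Sel1l, Canx, Hsp90b1 and Calr, from 0.06 to 0.12) and 3 lower (Creld2, Xbp1 and Dnajc3, from -0.13 to -0.05). This balance depended on the scaling, since with quantile normalization 2 were higher and 5 lower, and Calr changed from 0.06 to -0.01 and Hspa5, not called at 0.03, to -0.07 (adjusted p = 0.0074). All genes moved the same way: of those called, 43.2% were higher with this scaling, beside 51.7% in the main fit. Leaving out single libraries moved the count of 9 called ER genes to 4 without shGFP replicate 1 and to 5 without shGFP replicate 3, shKDM1A replicate 3 or shKDM1A replicate 4, and Dnajc3, Sel1l, Calr, Xbp1, Creld2 and Sdf2l1 were each lost in 2 to 9 of these 16 fits. With IL4, 8 of the 17 (47.1%) were called, close to the 40.7% of all genes, so the number called does not set the ER genes apart. Of these 8, 7 were higher and 1 lower: Edem1, Sdf2l1 (0.29, adjusted p = 9.2e-06), Calr (0.22), Hspa5 (0.16), Pdia3 (0.16), Hsp90b1 (0.13) and Canx (0.08) were higher, and Ern1 was lower (-0.15, adjusted p = 0.014). With quantile normalization Hspa5, Hsp90b1 and Canx were not called (0.03, 0.04 and 0.00), and 4 higher and 1 lower remained. Of all genes called with that scaling 45% were higher, beside 51.3% in the main fit.

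**Figure D4:**
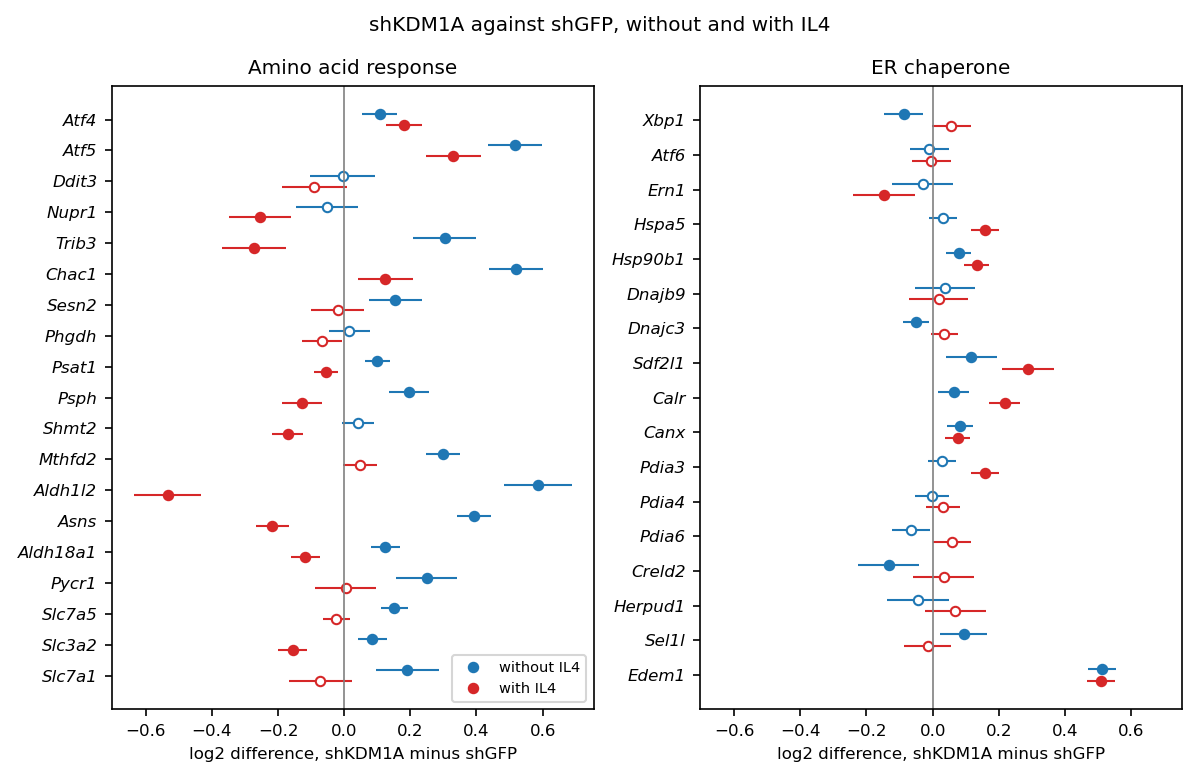
The log2 difference of shKDM1A against shGFP for each gene without IL4 (blue) and with IL4 (red), with its 95% confidence interval. Filled points passed an adjusted p under 0.05. Aldh1l2 moves from 0.59 to -0.53 and Asns from 0.39 to -0.22, while Edem1 stays at 0.51.

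Further genes of the same pathways, from lists that hold none of the 36, were counted in the same fit and libraries. Both lists were chosen with earlier results of these data known, so their counts are not separate evidence. Of 41 further amino acid response genes (eIF2 alpha kinases, tRNA synthetases, transporters and enzymes) 37 were tested, and with IL4 18 were higher and 4 lower in shGFP cells, and 3 were higher and 19 lower in shKDM1A cells. In each kind of cell 59.5% of the 37 were thus called, beside 26.9% and 27.1% of all genes. In the interaction 19 of the 37 (51.4%, beside 6.13% of all genes) had a more negative IL4 difference in shKDM1A cells and none a more positive one. Pck2, the mitochondrial enzyme that makes phosphoenolpyruvate, had group means of 9.62 in shGFP, 10.47 in shGFP with IL4, 10.22 in shKDM1A and 10.08 in shKDM1A with IL4. That is a rise of 0.85 with IL4 in shGFP cells (SE 0.03, adjusted p = 4.9e-12), a difference of -0.14 in shKDM1A cells (SE 0.03, adjusted p = 0.0028) and a gap of -0.996 (SE 0.05, adjusted p = 4e-09), next in size to that of Aldh1l2. Others moved with the knockdown at both IL4 states: Slc7a11, the cystine transporter (-0.66 without and -0.75 with IL4), and Stc2, a secreted glycoprotein (-0.58 and -0.57), were lower, and Eif2ak2, the kinase PKR (0.40 and 0.52), was higher, each with an adjusted p of at most 1.6e-08.

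Of 55 further ER genes 54 were tested, and with IL4 4 were higher and 30 lower in shGFP cells, and 6 were higher and 21 lower in shKDM1A cells. Against shGFP, 19 were higher and 6 lower in shKDM1A cells without IL4, and 27 were higher and 3 lower with IL4. These are 46.3% and 55.6% of the 54 called, beside 38.2% and 40.7% of all genes, and the IL4 counts are 63% and 50% called, beside 26.9% and 27.1%. Hyou1, a large ER chaperone and exchange factor of BiP, fell with IL4 by 0.32 in shGFP and 0.22 in shKDM1A cells and was higher with the knockdown by 0.33 without and 0.43 with IL4 (adjusted p = 9.1e-12 for the last). Ppib, a prolyl isomerase, was higher with the knockdown by 0.30 and 0.42, and Ero1lb, an ER oxidase, by 0.35 and 0.22. Manf, a secreted ER stress protein, fell with IL4 by 0.34 in shGFP cells and 0.22 in shKDM1A cells, near the values of Creld2, Pdia6 and Hspa5.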

How the data were processed

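RNA-seq reads of the RAW cells had been aligned to mm9 with HISAT2 and Bowtie2 and counted with HOMER over the exons of its mm9 genes, on both strands, 1 row per gene. The authors deposited log2 values per library, made with HOMER's getDiffExpression and its DESeq2 option per the file headers. The transformation is not named. Low genes varied little, Cd3e only from -2.266 to -2.265 and Col1a1 from -1.727 to -1.715 over the 16 libraries. Where the transformation moderates low counts, differences of low genes are understated, which was not tested. The tag total of each library was read from the deposited header. The decimals are commas and were read as points. The BMDM table, whose deposited columns are the authors' log2 fold changes and p-values, was used for its gene symbols only.

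Genes were kept where 4 or more libraries reached a value of 1 (12905 of 25094), and were fitted with limma 3.58.1 (R 4.3.3), group means over all 16 libraries. Scripts were tested on simulated data. Per-kilobase levels subtract the log2 exon length in the table. Overlaps were read from GENCODE vM1 (mm9), and gene coordinates from the deposited table. Promoters are RefSeq, GRCm38.p6, a later build than mm9. The 36 genes and the further lists were chosen with earlier results of these data known. Members with an absolute difference of at least 0.4 in a 2-group comparison are given in every library, as are Atf4, Ddit3, Xbp1 and Hspa5. From the further lists the 4 called genes with the largest differences are named. Filters, scaling, variance prior, thresholds, a replicate block and leaving out each library were tried as alternatives.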

Additional observations from a re-analysis of the deposited data

Results flagged for a closer look

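The IL4 response differed between shKDM1A and shGFP cells, by the interaction in limma, in 17 of the 36 genes, beside 6.13% of all genes tested (3.56% more positive and 2.57% more negative in shKDM1A cells). The gaps were -1.12 for Aldh1l2, -0.61 for Asns, -0.58 for Trib3, -0.39 for Chac1, -0.32 for Psph, -0.26 for Slc7a1, -0.25 for Mthfd2, -0.24 for Pycr1, -0.24 for Aldh18a1, -0.24 for Slc3a2, -0.21 for Shmt2, -0.18 for Slc7a5 and -0.16 for Psat1, all more negative in shKDM1A cells. They were 0.15 for Calr, 0.14 for Xbp1, 0.13 for Hspa5 and 0.13 for Pdia3, all more positive in shKDM1A cells.

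A single library stood apart from the other 3 of its group in 6 of the 144 sets of 4 values, while chance gives about 1 in 20, or 7.2. Trib3 was at 6.60 in shGFP IL4 replicate 3 (others 6.70 to 6.72), Mthfd2 at 11.99 in shGFP replicate 4 (others 11.90) and Slc3a2 at 11.79 in shGFP replicate 3 (others 11.85). Slc3a2 was at 11.94 in shKDM1A replicate 3 (others 11.91 to 11.92), Xbp1 at 12.52 in shKDM1A replicate 1 (others 12.42 to 12.43) and Sdf2l1 at 11.44 in shGFP IL4 replicate 2 (others 11.38 to 11.39).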

How the results depend on the processing

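Most differences here are small, and a log2 difference over 0.25, required besides the adjusted p, reduced the called genes from 29 to 14 for IL4 in shGFP cells (amino acid response 4), from 27 to 11 for IL4 in shKDM1A cells (amino acid response 5, ER 6), from 24 to 7 for the knockdown without IL4 (6 and 1), from 20 to 6 for the knockdown with IL4 (4 and 2) and from 17 to 7 for the interaction (7 and 0). Beside these, 681, 643, 1151, 1206 and 162 of all 12905 genes remained. Of these, 73.3% were higher for the knockdown without IL4 (51.7% without the added limit) and 37% for the interaction (58%). An adjusted p under 0.01 left 1 ER gene in the interaction and 3 for the knockdown without IL4, beside 263 and 3541 of all 12905 genes. With quantile normalization 5 ER genes were called for the knockdown with IL4, beside 41.1% of all genes. Without IL4 Calr (-0.0080) and Hspa5 (-0.0658) changed sign. Leaving out 1 library gave 4 to 10 called ER genes for the knockdown without IL4, beside 4419 to 5048 of all genes. For Ddit3 it gave differences from -0.0397 to 0.0171, and Ddit3 was not called in any of these fits. Over the interaction such fits gave 12 to 14 amino acid response and 3 to 6 ER genes, and called 530 to 1104 of all genes beside 791. The lowest of these was without shGFP IL4 replicate 3. Within the shKDM1A IL4 group the number depended on the library: 1104 or 1068 without replicate 2 or 4, and 591 or 558 without replicate 1 or 3. Without the filter on low values 431 genes were called, and 680 when the genes at 0 in all libraries were left out, an alternative chosen after seeing the data. Of the 387 alternative counts, 366 stayed within 1.5 times the main count. For single genes, 2829 of 2971 alternative differences kept their direction and side of the threshold. These cover members called in the main or the alternative fit, or named whatever their result. They leave out the added log2 limit and the stricter adjusted p. With the replicate number as a block, 19 members were called in the interaction, beside 732 of all 12905 genes. In the other comparisons 29, 28, 24 and 20 were called, beside 3430, 3459, 4882 and 5212 of all genes. The correlations showed little pairing by number: 3 of 24 same-numbered pairs had a correlation over 0.1 (highest 0.27), and 6 of 16 libraries correlated best with their own number. They cannot decide whether libraries with the same number were handled together.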
